A study of Mus musculus with 31 samples.

Results

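The genes described here build and control the major histocompatibility complex (MHC) class II molecules, the surface proteins that show peptides to CD4-positive T cells. They were picked by symbol from the table of counts, and all 9 of the symbols sought were among its 39179 genes: *H2-Aa*, *H2-Ab1*, *H2-Eb1*, *Cd74*, *H2-DMa*, *H2-DMb1*, *H2-Oa*, *H2-Ob* and *Ciita*. The study asked how topical glucocorticoids (GCs), anti-inflammatory steroids that act through the GC receptor (GR), affect mouse melanoma, and whether the GR of the tumor cells is needed. Its tumor cells were a melanoma line that carries the alleles Nras+LSL-G12D;Tyr::CreERT2+/o and stems from C57BL/6 mice. GR KO cells were made from it by editing *Nr3c1*, the gene of the GR, with a CRISPR-Cas9 ribonucleoprotein and picking single clones. *In vivo*, parental or GR KO cells were implanted in the skin of wild-type C57BL/6 mice, and 4 groups of 5 tumors were sequenced: parental with control cream, parental with GC, GR KO with control cream and GR KO with GC. The GC was clobetasol propionate ointment (0.05%), put on 3 times a week, and the control was cetraben cream. *In vitro*, both kinds of cell spent 48 hours with DMSO (3 cultures of each) or with the GC itself (2 cultures of parental and 3 of GR KO cells). The sources conflict on the dose in culture, given as 10 µM in one place and 1 µM in another. The ages of the mice were not given in the sources used here. The host cells of a GR KO tumor kept their own GR, so a whole tumor of this group was not free of the receptor, and a clone can differ from its parental line in more than the edited gene.

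A class II molecule is a pair of chains, alpha and beta, which in C57BL/6 mice are those of I-A (*H2-Aa* and *H2-Ab1*), while *H2-Eb1* is the beta chain of I-E. The chains are assembled on the invariant chain, encoded by *Cd74*, which fills the groove and guides them to endosomes. There the H2-DM dimer exchanges the last piece of the invariant chain for a peptide, and the H2-DO dimer holds H2-DM back. Dendritic cells, macrophages and B cells carry class II constitutively or on activation, and many other cells, melanoma cells included, can be induced to do so by interferon gamma. CIITA, the class II transactivator, is the switch of this program and acts at promoters that share a set of boxes bound by RFX, CREB and NF-Y proteins.

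RNA was sequenced from its 3′ ends, and the values are numbers of reads per gene. The parental tumors with control cream held 15528066, 19649621, 17750913, 16865315 and 26386770 reads on genes. With GC, the parental tumors held 17645745, 20917002, 20602855, 21660514 and 16028972 reads. In GR KO control tumors the totals were 18121277, 20520029, 15922706, 23643511 and 19871559, and in GR KO tumors with GC they were 20421176, 18591521, 19736725, 19376173 and 20183175. No group of tumors stood apart in depth. Cultures held 15121571, 16743983 and 16648617 reads (parental, DMSO), 14441166 and 22463188 (parental, GC), 18780474, 20120020 and 18633794 (GR KO, DMSO) and 16866831, 21740716 and 17054739 (GR KO, GC). Levels below are CPM, the counts of a gene scaled to a library of fixed size, with library sizes set by the trimmed mean of M-values (TMM). A count of 0 allows up to 3 counts, which equal 0.112 to 0.220 CPM in a tumor and 0.136 to 0.207 CPM in a culture, and such limits and the counting intervals below cover counting error only. No replicates were alike to within sampling noise, as their chi-square per gene was 8.26 to 411. Each tumor came from its own mouse, whereas nothing in the sources says that the cultures were independent, so their p-values may measure technical spread. The library names of all cultures carry the same date, and those of all GR KO cultures share a label that the parental names lack.

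*Nr3c1* was read in every sample as a check of the labels. Its level in control tumors was 63.4, 57.1, 44.9, 55.6 and 52.2 CPM when parental and 20.7, 27.3, 31.4, 31.8 and 23.5 CPM when GR KO. With GC it was 53.4, 24.4, 48.2, 37.3 and 49.8 CPM in parental tumors and 47.9, 21.7, 58.0, 32.5 and 49.4 CPM in GR KO tumors. Cultures had 33.2, 30.0 and 35.6 CPM (parental, DMSO), 39.5 and 33.4 CPM (parental, GC), 24.8, 21.0 and 16.4 CPM (GR KO, DMSO) and 20.9, 22.5 and 13.1 CPM (GR KO, GC). GR KO samples were below all parental ones in control tumors and in cultures, and the genotypes overlapped in tumors with GC. Reads from transcript ends do not show the edit itself. The GC-responsive gene *Tsc22d3* rose in parental cultures (log2 fold change 3.09, adjusted p = 2.28e-05 from edgeR) and had a log2 fold change of -0.05 in GR KO cultures, and it rose in tumors of both genotypes (2.34 in parental tumors, adjusted p = 1.61e-05, and 1.77 in GR KO tumors, adjusted p = 0.000403, both from edgeR).

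The label of melanoma was set beside melanocyte genes. *Sox10*, *Dct*, *Tyr* and *Mlana* had 0 counts in all 11 cultures, *Tyrp1* had 4 counts in 1 culture and 0 in the others, and *Pmel* had at most 8 counts, while *Mitf* had 63 to 254. *Tyr* was also at 0 in all 20 tumors. In tumors *Dct*, *Pmel* and *Sox10* averaged 2.70, 2.14 and 1.51 CPM. The pigment genes of the melanocyte lineage were thus absent or near the floor in the cultures. The leukocyte gene *Ptprc* had 0 to 10 counts in a culture and 21.0 to 67.2 CPM in a tumor, so leukocyte RNA was at or near the floor in the cultures.

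On the mouse assembly GRCm38, 7 of the 9 members lie within 224 kb of chromosome 17. In order they are *H2-Oa* (ENSMUSG00000024334, 34092340 to 34095234), *H2-DMa* (ENSMUSG00000037649, 34119541 to 34139101), *H2-DMb1* (ENSMUSG00000079547, 34153072 to 34160230), *H2-Ob* (ENSMUSG00000041538, 34238903 to 34254414), *H2-Ab1* (ENSMUSG00000073421, 34257689 to 34269419), *H2-Aa* (ENSMUSG00000036594, 34282744 to 34287823) and *H2-Eb1* (ENSMUSG00000060586, 34305867 to 34316674). All are on the plus strand except *H2-Aa*. *Ciita* (ENSMUSG00000022504) is on the plus strand of chromosome 16 from 10480059 to 10528418, and *Cd74* (ENSMUSG00000024610) is on the plus strand of chromosome 18 from 60803848 to 60812652. *H2-DMb1* has a near-identical neighbor, *H2-DMb2*, and reads that match both cannot be placed with certainty, so the values of both are uncertain. *H2-DMa* overlaps *Brd2* and 3 further annotated genes, *Ciita* overlaps *Dexi* on the other strand, *H2-Oa* overlaps *BC051537*, *H2-Eb1* overlaps *Gm20513* and *Cd74* overlaps *Mir5107* on the same strand. No strand setting is named for the counting, and the default of featureCounts ignores the strand, so reads of these overlapping genes cannot be told apart with certainty.

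The class II program was nearly silent in the cultured cells. *H2-Oa*, *H2-Ob* and *Ciita* had 0 counts in all 11 cultures. *H2-Aa* had 0 to 1 counts per culture, *H2-Ab1* and *Cd74* 0 to 2, *H2-DMb1* 0 to 3 and *H2-Eb1* 0 to 6. *H2-DMa*, the alpha chain of H2-DM, was the exception, with 38, 56 and 34 counts in parental cultures with DMSO, 15 and 61 with GC, 25, 48 and 12 in GR KO cultures with DMSO and 29, 41 and 18 with GC. These counts equal 0.646 to 3.45 CPM, and in CPM the groups overlapped except that GR KO cultures with GC (1.14 to 1.94 CPM) were below parental cultures with DMSO (1.998 to 3.45 CPM). GC did not turn on any member in culture: the 8 members other than *H2-DMa* stayed at or under 6 counts with GC as with DMSO. Only *H2-DMa* was high enough to be tested, and it passed in none of 5 comparisons. With GC against DMSO its log2 fold change was -0.46 in parental cultures (standard error, SE, 0.58, adjusted p = 0.784 from edgeR) and 0.16 in GR KO cultures (SE 0.52, adjusted p = 0.982 from edgeR), and the difference between these effects was -0.61 (adjusted p = 0.734 from edgeR). Without 1 culture this difference ranged over -1.50 to -0.0947. GR KO cultures against parental ones gave -0.89 with DMSO (SE 0.52, adjusted p = 0.308 from edgeR) and -0.28 with GC (adjusted p = 0.873 from edgeR). Its unadjusted p was above 0.05 in all 5, and DESeq2 called it in 0. A gene was called, here and below, at an adjusted p under 0.05 and a fold change of at least 1.5. The share of all 12525 genes called in these comparisons was 0.878% (GC, parental), 0% (GC, GR KO), 0.295% (difference), 8.22% (genotype, DMSO) and 5.55% (genotype, GC).

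In the tumors the same genes were read at higher levels, though *H2-Oa*, *H2-Ob* and *Ciita* stayed low there too. In parental control tumors *Ciita* was at least 89.7-fold higher than in parental cultures with DMSO, *H2-DMb1* at least 3800.3-fold, *H2-Oa* at least 46.5-fold and *H2-Ob* at least 68.6-fold, each set against 3 counts over the group of cultures. *H2-Aa*, with 1 count in these cultures, was 45173-fold higher (95% counting interval 8108 to 1784260), and *H2-Ab1*, with 3 counts, was 25227-fold higher (8632 to 122331). *Cd74* was 73836-fold higher (13252 to 2916360, on 1 count), and *H2-Eb1* was 3002-fold higher (1524 to 6955, on 8 counts). The smallest ratio was that of *H2-DMa*, at 19.3 (16.2 to 23.2). GR KO control tumors were at least 24361-fold above GR KO cultures with DMSO for *H2-Aa*, 9431-fold for *H2-Eb1*, 69.3-fold for *H2-Oa*, 56.0-fold for *H2-Ob* and 227-fold for *Ciita*. The ratios with counts in these cultures were 58415 for *H2-Ab1* (16171 to 482350), 28606 for *Cd74* (9788 to 138711), 2538 for *H2-DMb1* (1288 to 5880) and 43.1 for *H2-DMa* (34.9 to 54.0). All 9 members were called higher in the tumors of either genotype, against 46.7% of 16273 genes called (30.4% called higher) in parental samples and 54.8% called (34.2% higher) in GR KO samples. The 8 members other than *H2-DMa* passed the low-count filter by their tumor levels alone, so these shares are not a like comparison for them. Tumors and cultures were separate experiments that also differ in growth and collection, and the effect of host cells in the tumor cannot be told apart from these.

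**Figure D1:**
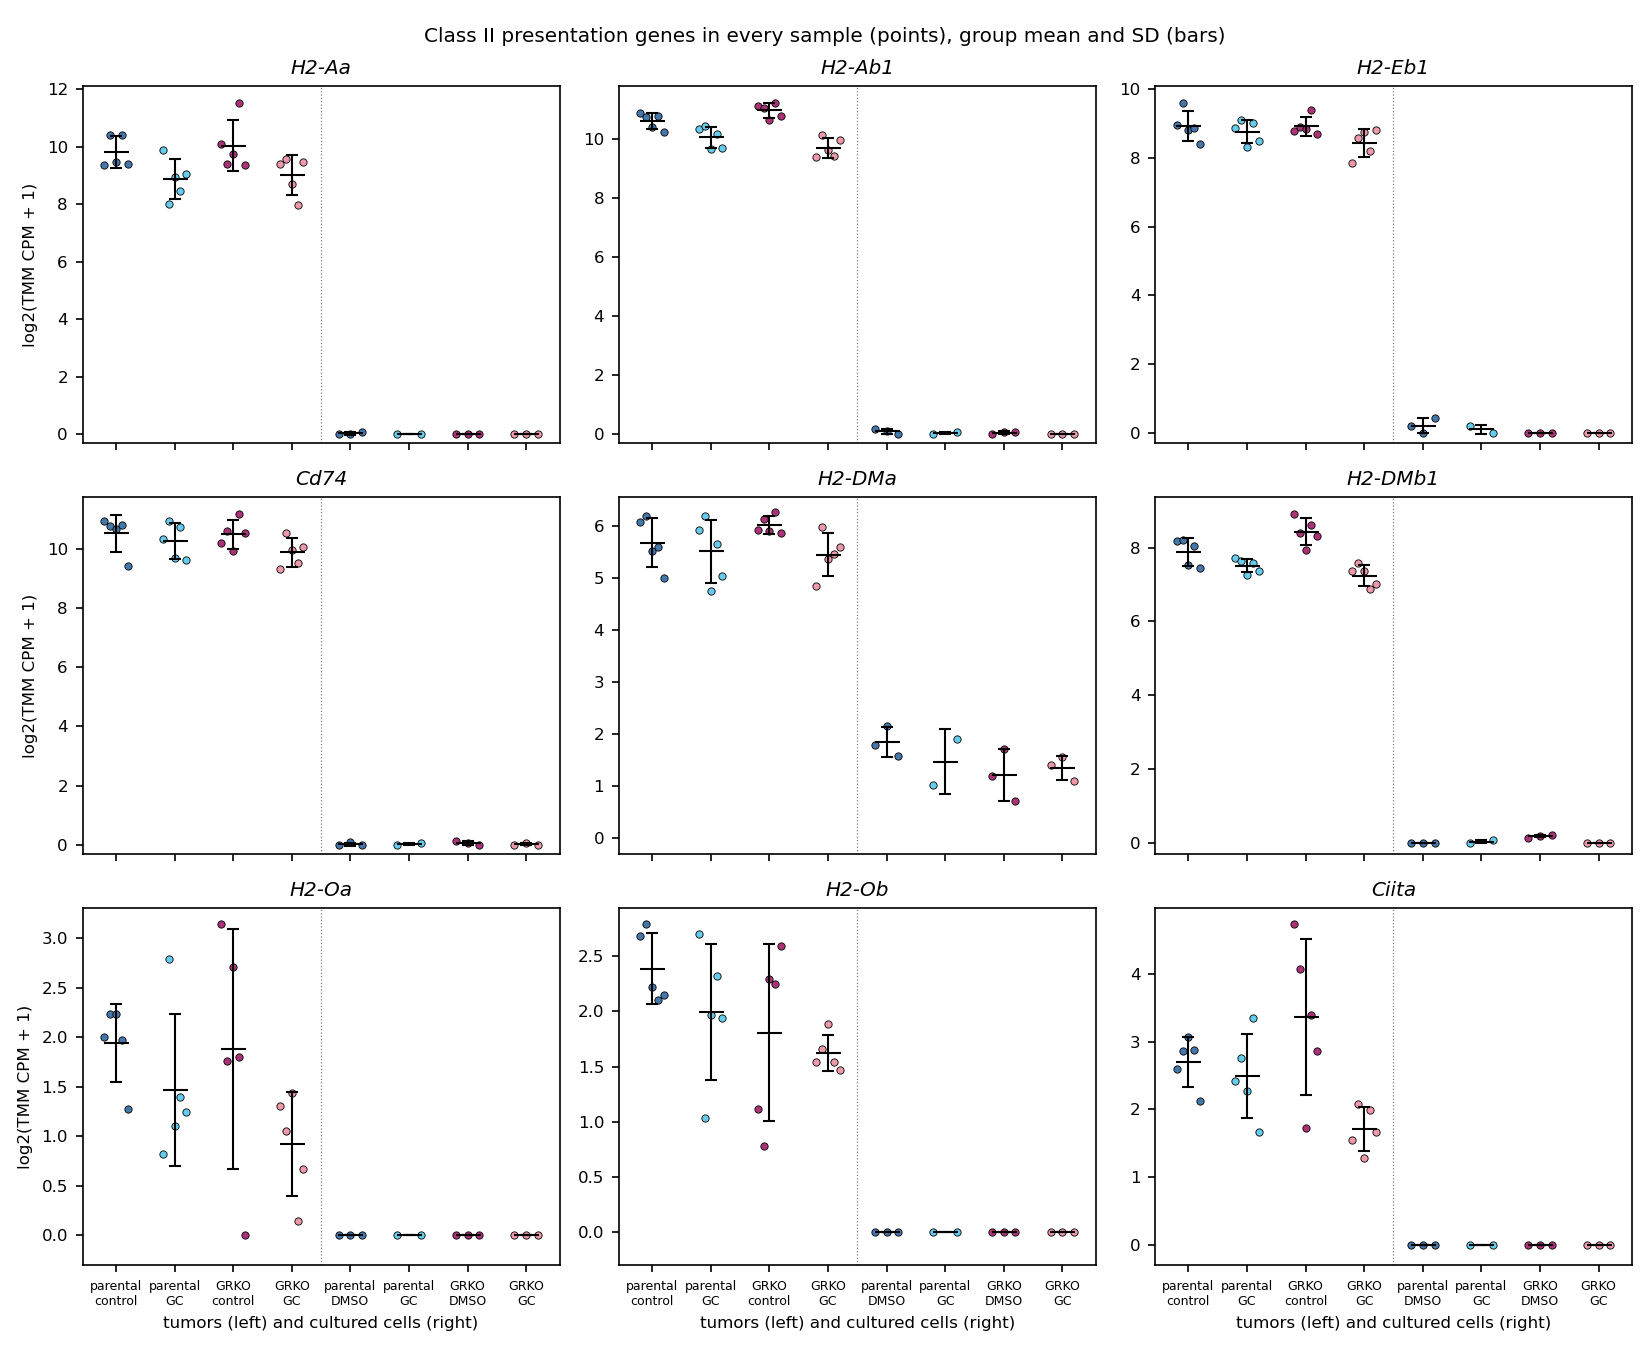
Level of each class II presentation gene, as log2(TMM CPM + 1), in every tumor (left of the dotted line) and culture (right), with points for samples and bars for the group mean and SD. Cultures sit at or near 0 for every gene but *H2-DMa*, and the 5 GR KO tumors with GC lie below the 5 GR KO control tumors for *H2-Ab1* and *H2-DMb1*.

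Among the classical chains, *H2-Ab1* (the I-A beta chain) stood at 1909, 1724, 1370.4, 1783 and 1213 CPM in parental control tumors and at 1289, 1392, 805, 1162 and 827 CPM in parental tumors with GC. GR KO control tumors had 2241, 2133, 1614, 2423 and 1768 CPM of *H2-Ab1*, and GR KO tumors with GC had 667, 1117, 794, 683 and 1004 CPM. Every GR KO tumor with GC was below every GR KO control tumor, while in parental tumors 3 of the 5 with GC were below all controls and the groups overlapped. The share of all genes whose groups did not overlap was not computed, here or below. The group means were 1599.8 ± 295 and 1095 ± 268 CPM in parental tumors and 2036 ± 336 and 853 ± 199.5 CPM in GR KO tumors, with control before GC (SD, n = 5 each). *H2-Aa*, its alpha chain partner, was at 663, 1363, 707, 1350.2 and 679 CPM in parental control tumors and at 941, 258, 497, 351 and 529 CPM with GC. GR KO control tumors had 1097, 681, 864, 2962 and 657 CPM of *H2-Aa*, and with GC they had 679, 757, 414, 248 and 704 CPM. In parental tumors 4 of the 5 with GC were below all controls, in GR KO tumors 2 of 5 were, and GR KO control tumor 4 alone reached 2962 CPM. *H2-Eb1* varied less, from 335 to 783 CPM in parental control tumors, 319 to 551 CPM in parental tumors with GC, 416 to 669.9 CPM in GR KO control tumors and 232 to 446 CPM in GR KO tumors with GC, with overlap in both genotypes.

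The alpha and beta chains of I-A did not keep 1 ratio from tumor to tumor. The log2 ratio of *H2-Aa* to *H2-Ab1* was -1.52, -0.34, -0.95, -0.40 and -0.84 in parental control tumors and -0.45, -2.43, -0.69, -1.72 and -0.64 with GC. In GR KO tumors it was -1.03, -1.65, -0.90, 0.29 and -1.43 in controls and 0.03, -0.56, -0.94, -1.46 and -0.51 with GC. The 4 groups overlapped in this ratio, and the lowest values were those of parental GC tumors 2 and 4. Within groups, the pooled SD of the log2 level was 0.71 for *H2-Aa* against 0.31 for *H2-Ab1* and *H2-DMb1*, 0.37 for *H2-Eb1*, 0.44 for *H2-DMa*, 0.55 for *Cd74*, 0.54 for *H2-Ob*, 0.70 for *Ciita* and 0.79 for *H2-Oa*. Over the 20 tumors, *H2-Aa* spanned 12-fold, *H2-Ab1* 3.63-fold, *Cd74* 3.68-fold and *Ciita* 17.9-fold.

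The invariant chain gene *Cd74* was at 1948, 1746, 1633, 1789 and 679 CPM in parental control tumors and at 1276, 1954, 818, 1678 and 791 CPM with GC. GR KO tumors had *Cd74* at 1176, 1528, 957, 2313 and 1464 CPM in controls and 629, 1477, 978, 735 and 1060.1 CPM with GC. The groups overlapped in both genotypes, and parental control tumor 5 was below all 5 parental tumors with GC. Its mean was 1559 ± 505 and 1304 ± 515 CPM in parental and 1488 ± 516 and 976 ± 330.4 CPM in GR KO tumors (control, then GC, SD, n = 5 each).

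Of the peptide exchange factor H2-DM, the beta chain gene *H2-DMb1* was at 291, 294, 184, 262 and 173 CPM in parental control tumors and at 208, 198, 152, 190.4 and 166 CPM with GC. Among GR KO tumors *H2-DMb1* was at 485, 338, 244, 390.1 and 315 CPM in controls and at 163, 190.2, 163, 117 and 127 CPM with GC. The GR KO groups did not overlap, and the parental groups did. The group means of *H2-DMb1* were 241 ± 58.5 and 183 ± 23.1 CPM in parental tumors and 354 ± 89.9 and 152 ± 29.6 CPM in GR KO tumors (control, then GC, SD, n = 5 each). Its partner *H2-DMa* ranged over 31 to 72.0 CPM and 25.8 to 71.6 CPM in parental tumors (control and GC) and over 56.8 to 76.1 CPM and 27.5 to 61.9 CPM in GR KO tumors, where 4 of the 5 with GC were below all controls.

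The subunits of H2-DO, the brake on H2-DM, were among the low genes. *H2-Oa* was at 2.99, 3.69, 3.70, 2.92 and 1.42 CPM in parental control tumors and at 0.766, 5.91, 1.15, 1.63 and 1.37 CPM with GC. In GR KO control tumors it was at 7.84, 2.39, 5.53, 2.47 and 0 CPM, and with GC at 1.47, 1.08, 1.71, 0.106 and 0.590 CPM, where 0.106 CPM stands for 2 counts. The 5 GR KO tumors with GC had less than 4 of the 5 controls, the control at 0 being the exception. *H2-Ob* ranged over 3.30 to 5.95 CPM and 1.05 to 5.51 CPM in parental tumors and over 0.717 to 5.04 CPM and 1.77 to 2.70 CPM in GR KO tumors (control and GC), with overlap in both.

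The transactivator gene *Ciita* was at 5.03, 6.29, 7.41, 6.39 and 3.35 CPM in parental control tumors and at 4.34, 5.81, 3.85, 9.21 and 2.17 CPM with GC. In GR KO control tumors *Ciita* was at 25.7, 15.9, 2.32, 9.58 and 6.27 CPM, and in GR KO tumors with GC at 1.92, 3.23, 1.44, 2.97 and 2.18 CPM. The GR KO controls spread widely, with tumors 1 and 2 above all 18 others and tumor 3 within the range of the GC group, so that 3 of the 5 tumors with GC were below all controls. Group means were 5.69 ± 1.56 and 5.07 ± 2.65 CPM in parental tumors and 12 ± 9.16 and 2.35 ± 0.743 CPM in GR KO tumors (control, then GC, SD, n = 5 each).

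The first question of the design is what GC did to tumors whose own cells could respond to it. In parental tumors every member had a lower fitted level with GC than with control cream, and none of these changes passed the test. The sign turned for *H2-Eb1* and *H2-DMa* without parental control tumor 2 (0.0256 and 0.0132), for *H2-DMa* without parental GC tumor 3 (0.0263) and for *Ciita* without parental GC tumor 5 (0.0297). edgeR called 0 of the 9 members, against 0.779% of 15919 genes, and 2 members (*H2-Aa* and *H2-Ab1*) had an unadjusted p under 0.05, against 14.1% of all genes, while DESeq2 called 0. The median log2 fold change of the members was -0.40, against 0.00 over all genes, of which 49.7% were negative. *H2-Aa* had a log2 fold change of -0.89 (SE 0.41, adjusted p = 0.321 from edgeR) and *H2-Ab1* one of -0.55 (SE 0.21, adjusted p = 0.234 from edgeR). *H2-DMb1* followed at -0.40 (SE 0.20, adjusted p = 0.381 from edgeR), and the values of the others ranged from -0.44 for *H2-Oa* to -0.13 for *H2-DMa*, with *Ciita* at -0.16 (SE 0.47). Without 1 tumor, *H2-Oa* ranged over -1.26 to -0.24, *H2-Ob* over -0.68 to -0.19 and *Cd74* over -0.45 to -0.12. By exact two-sided permutation of single levels, 1 of the 9 members had a p under 0.05, against 15.6% of all genes: *H2-Ab1* (difference of mean log2(CPM + 1) -0.56, p = 0.0397 unadjusted, lower than the control median in 5 of 5 tumors). For *H2-Aa* this difference was -0.94 (p = 0.0635 by the exact permutation test). In bulk RNA, fewer class II-bearing cells and less class II RNA per cell cannot be told apart.

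GR KO tumors address what GC did where the tumor cells carried the edited *Nr3c1* and the host cells an intact one. There *H2-Ab1*, *H2-DMb1* and *Ciita* fell with GC. *H2-Ab1* had a log2 fold change of -1.26 (SE 0.21, adjusted p = 0.00210 from edgeR), *H2-DMb1* one of -1.22 (SE 0.21, adjusted p = 0.00210 from edgeR) and *Ciita* one of -2.35 (SE 0.50, adjusted p = 0.00804 from edgeR), each lower than the control median in 5 of 5 tumors. These 3 of 9 members were called against 6.42% of 15919 genes in either direction and 3.71% called lower. DESeq2 also called 3 members, but it called 1756 of the 15919 genes, 1036 of them lower. All 9 members had negative values, with a median of -1.16 against 0.05 over all genes, of which 47.2% were negative. *H2-Aa* was at -1.16 (SE 0.41, adjusted p = 0.0837 from edgeR, and -0.55 without GR KO control tumor 4) and *H2-Oa* at -1.87 (SE 0.83, adjusted p = 0.170 from edgeR), and neither passed. The other 4 ranged from -0.61 for *Cd74* (SE 0.31, adjusted p = 0.227 from edgeR) to -0.46 for *H2-Eb1* (SE 0.23, adjusted p = 0.221 from edgeR). By exact two-sided permutation of single levels, 5 of the 9 members had a p under 0.05, against 19.2% of all genes: *H2-Ab1* (difference -1.27) and *H2-DMb1* (-1.20), both at p = 0.00794, the smallest that 5 against 5 allow, *Ciita* (-1.65, p = 0.0238), *H2-DMa* (-0.57, p = 0.0317) and *H2-Eb1* (-0.48, p = 0.0476). These p-values are not adjusted for the 36 such tests made. GR KO control tumors had 13442, 14887, 15150, 16980 and 14335 genes with a count, against 16799, 15623, 16769, 15224 and 16548 in GR KO tumors with GC. Their TMM factors, in the same order, were 0.753, 0.816, 0.919, 1.10 and 0.819 against 1.10, 0.998, 1.13, 0.975 and 1.09. The part of either in the result was not tested.

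Averaged over both genotypes, GC lowered 4 of the 9 members, against 4.28% of all genes called and 2.32% called lower. They were *H2-Ab1* (log2 fold change -0.90, SE 0.15, adjusted p = 0.00101 from edgeR), *H2-DMb1* (-0.81, SE 0.14, adjusted p = 0.00208), *Ciita* (-1.26, SE 0.34, adjusted p = 0.0329) and *H2-Aa* (-1.02, SE 0.29, adjusted p = 0.0388). The calls of *H2-Aa* and *Ciita* hung on single tumors, as they held in 9 and 10 of the 20 fits that each left out 1 tumor (-1.19 to -0.71 and -1.42 to -1.01). With the replicate number as a block, *H2-Aa* was not called. For *Ciita* the average joined -0.16 in parental tumors, which was not called, and -2.35 in GR KO tumors. For *H2-Aa* it joined -0.89 and -1.16, and neither was called. The median of the members was -0.81 against 0.02 over all genes, of which 47.7% were negative. *H2-Eb1*, *Cd74* and *H2-DMa* stood at -0.32, -0.43 and -0.34 and did not pass. Nor did *H2-Oa* (-1.15, SE 0.58, adjusted p = 0.272 from edgeR) or *H2-Ob* (-0.45).

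A call in GR KO tumors and none in parental tumors does not show that the genotypes responded differently, so the difference of the GC effects was tested itself. It was called for 0 of the 9 members by edgeR, against 0.195% of all genes. The parental effect minus the GR KO effect was positive for all 9, with a median of 0.41 against -0.04 over all genes, but for *H2-Aa* (0.27) and *H2-Ob* (0.07) it turned negative in some fits without 1 tumor, down to -0.33 without GR KO control tumor 4 and -0.22 without GR KO control tumor 5. It was 2.18 for *Ciita* (SE 0.68, adjusted p = 0.108 from edgeR), 0.82 for *H2-DMb1* (SE 0.29, adjusted p = 0.134) and 0.71 for *H2-Ab1* (SE 0.30, adjusted p = 0.190), and these 3 had an unadjusted p under 0.05, against 20.1% of all genes. DESeq2 called 1 member, *Ciita* (2.22, adjusted p = 0.0302 from DESeq2), against 4.92% of all genes, and edgeR called it as well without GR KO control tumor 4 (2.25, adjusted p = 0.0489 from edgeR).

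**Figure D2:**
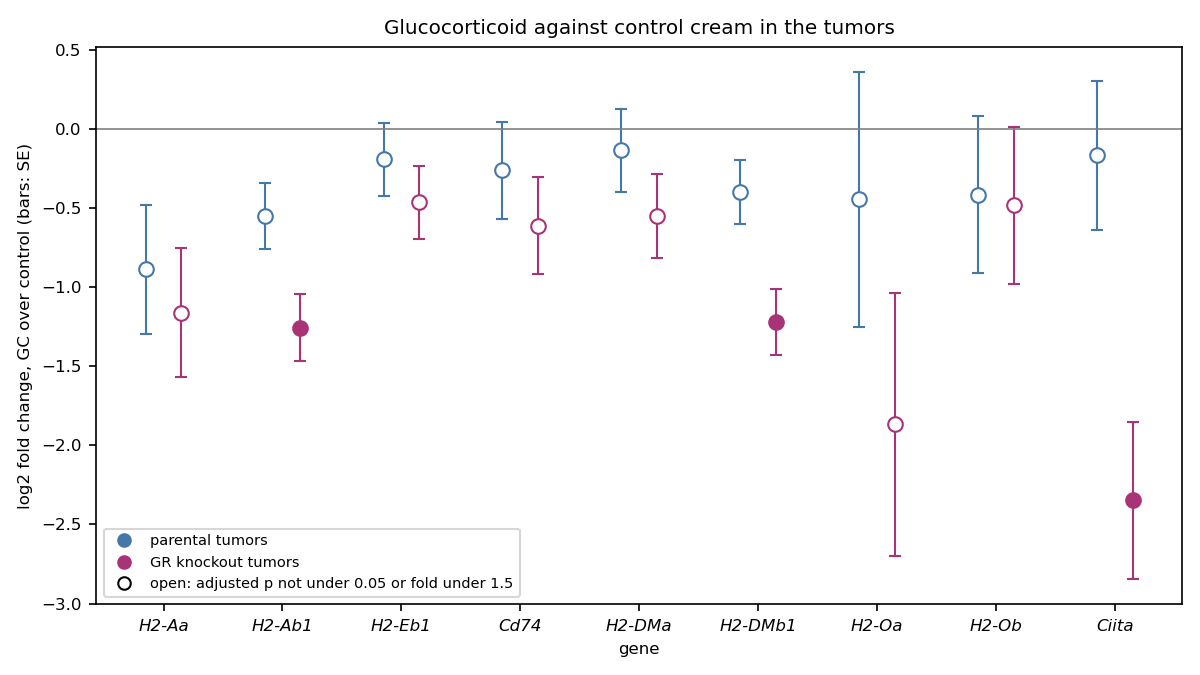
Log2 fold change of each class II presentation gene with GC against control cream in parental and GR KO tumors (edgeR, bars for SE, 5 tumors per group), with filled points for genes called. All 18 points are below 0, and the 3 filled points are *H2-Ab1* at -1.26, *H2-DMb1* at -1.22 and *Ciita* at -2.35 in GR KO tumors.

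Genotype by itself gave no call among the class II genes. In control tumors edgeR called 0 of the 9 members between GR KO and parental, against 2.25% of all genes, with 2 at an unadjusted p under 0.05 (20% of all genes) and 0 by DESeq2. The values ranged from -0.57 to 1.07 with a median of 0.31 against -0.04 over all genes, and the highest were *Ciita* (1.07, SE 0.48, adjusted p = 0.210 from edgeR) and *H2-DMb1* (0.56, SE 0.20, adjusted p = 0.133 from edgeR). Without 1 tumor, *Ciita* ranged over 0.583 to 1.33 and *H2-DMb1* over 0.418 to 0.666. Between tumors with GC, edgeR called 0 of 9 against 0.634% of all genes, with 1 at an unadjusted p under 0.05 (11.4% of all genes) and 0 by DESeq2. Here 8 of 9 values were negative, with a median of -0.36 against 0.01, *Ciita* being at -1.11 (SE 0.48, adjusted p = 0.381 from edgeR) and *H2-DMb1* at -0.26. Averaged over both treatments, edgeR called 0 of 9 against 1.56% of all genes, 0 had an unadjusted p under 0.05 (12.9% of all genes), DESeq2 called 0, and the median was -0.02 against -0.01. By exact permutation of single levels, 0 of 9 members had a p under 0.05 in control tumors (16.3% of all genes) and 1 of 9 with GC (13.1% of all genes), *Ciita*, with a difference of -0.78 (p = 0.0397, exact permutation test, unadjusted). The comparisons by genotype and those by treatment share tumors, so their values are given side by side only.

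To set the class II genes beside a leukocyte gene of the same tumor, the classical chains and *Cd74* were divided by *Ptprc* (CD45, carried by nearly all leukocytes). The log2 ratio of *H2-Ab1* to *Ptprc* was 5.19, 4.66, 5.48, 4.95 and 5.65 in parental control tumors and 4.33, 5.05, 4.67, 4.59 and 4.23 with GC. In GR KO tumors it was 6.67, 5.56, 5.15, 5.19 and 5.04 in controls and 4.02, 4.67, 3.87, 4.57 and 4.65 with GC. The GR KO groups did not overlap (difference -1.17, p = 0.00794, exact permutation test), and this was 1 of 4 genes against 12.1% of all genes. In GR KO tumors *Ptprc* was itself at -0.17 (log2 fold change with GC, adjusted p = 0.763 by edgeR), while *Laptm5*, another leukocyte gene, fell by 1.34 (adjusted p = 0.00284 from edgeR), so the ratio to *Ptprc* does not set class II apart from leukocyte RNA at large. In parental tumors 2 of 4 genes had an exact permutation p under 0.05, against 4.43% of all genes: *H2-Aa* (difference -0.99, p = 0.0238) and *H2-Ab1* (-0.61, p = 0.0476). Over all 16 ratio tests to *Ptprc*, 3 passed, and 1 did without parental control tumor 3 or without parental control tumor 5. Between genotypes it was 0 of 4 in control tumors (4.16% of all genes) and 0 of 4 with GC (6.84%). All p-values of these ratios are unadjusted, over 16 tests for each gene divided by.

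Divided by *Csf1r*, a receptor of macrophages and monocytes, all 4 genes had lower ratios with GC in parental tumors, each in 5 of 5 tumors when set against the control median. This was 4 of 4 genes with an exact permutation p under 0.05, against 6.99% of all genes. The log2 ratio of *H2-Eb1* to *Csf1r* was 0.27, 0.22, 0.51, 0.63 and 0.34 in parental control tumors and 0.06, -0.88, 0.10, -0.73 and -0.50 with GC, with no overlap (difference -0.78, p = 0.00794, exact permutation test). For *H2-Ab1* it was 2.22, 1.35, 2.11, 2.54 and 2.19 in parental controls and 1.51, 0.46, 1.43, 0.42 and 0.69 with GC (difference -1.18, p = 0.0238, exact permutation test). *H2-Aa* (difference -1.56, p = 0.0397) and *Cd74* (-0.88, p = 0.0476, exact permutation tests) had overlapping groups. In GR KO tumors 2 of 4 genes passed against 12.4% of all genes, *H2-Ab1* (-1.28, p = 0.00794) and *Cd74* (-0.61, p = 0.0476, exact permutation tests), and between genotypes 0 of 4 in control tumors (7.11%) and 0 of 4 with GC (7.95%). *Csf1r* itself averaged 394 ± 166 CPM in parental controls and 628 ± 299 CPM with GC (SD, n = 5 per group). Its log2 fold change of 0.67 did not pass (adjusted p = 0.290 by edgeR). The levels of *H2-Eb1* and *Cd74* differed there by -0.16 and -0.26 (p = 0.587 and 0.508, exact permutation tests), so most of their ratio differences in parental tumors came from *Csf1r*.

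**Figure D3:**
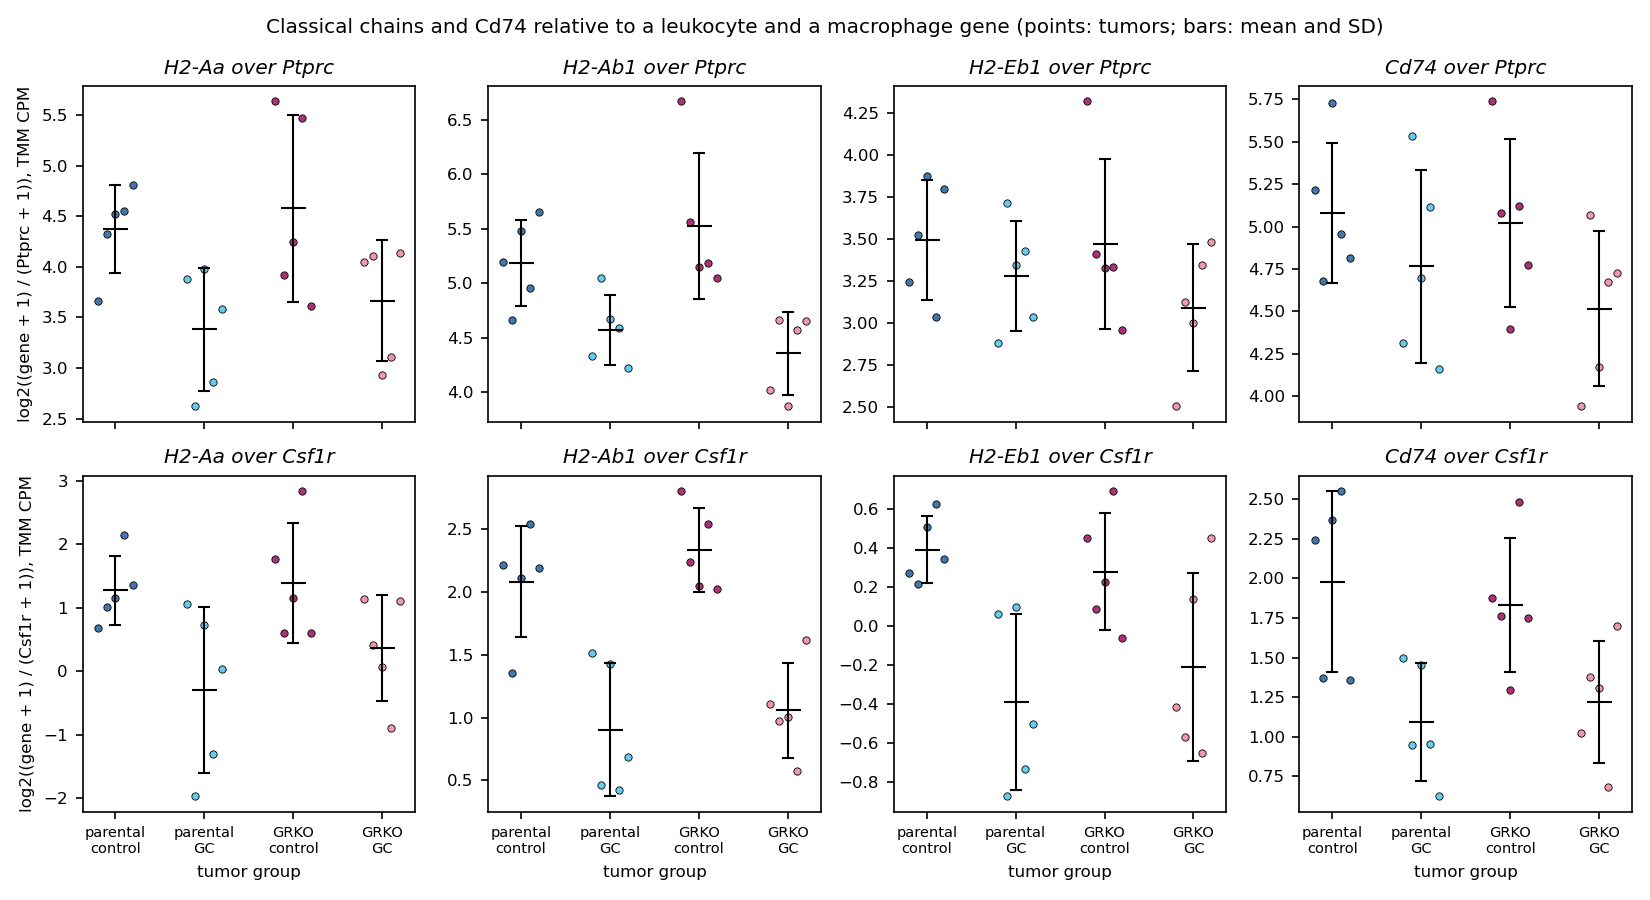
Log2 ratio of *H2-Aa*, *H2-Ab1*, *H2-Eb1* and *Cd74* to *Ptprc* (top) and to *Csf1r* (bottom) in every tumor, with points for tumors and bars for the group mean and SD. For *H2-Ab1* the 5 GR KO tumors with GC lie below the 5 GR KO control tumors in both rows, and for *H2-Eb1* over *Csf1r* the 5 parental tumors with GC lie below the 5 parental controls.

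Markers of the cells that carry class II moved with treatment in part. Of the 9 dendritic cell markers tested, GC lowered 4 in GR KO tumors, *Zbtb46* (log2 fold change -0.99), *Itgax* (-1.80), *Batf3* (-1.66) and *Irf8* (-1.09), against 6.42% of all genes called and 3.71% called lower. In parental tumors it lowered 0 by edgeR, against 0.779% of all genes called, where 3 had an unadjusted p under 0.05 (14.1% of all genes) and DESeq2 called 1. These shares over all genes hold for the marker counts that follow. DESeq2 called 376 of 15919 genes in parental and 1756 in GR KO tumors. The summed level of the 10 dendritic markers was 339, 333, 232, 373 and 218 CPM in parental controls and 275, 233, 179.8, 211 and 207 CPM with GC. The sum in GR KO tumors was 569.9, 544, 448, 471 and 387 CPM in controls and 197, 242, 192, 218 and 199 CPM with GC, with no overlap. *Irf8* was the most abundant of them in each tumor group, and none was at 0 throughout a group. Of the 3 markers of all leukocytes, GC lowered *Laptm5* in GR KO tumors (-1.34) and *Coro1a* in parental tumors (-1.29). Their sum, mostly *Laptm5*, was 1912, 1055, 1011, 773 and 894 CPM in GR KO controls and 529.6, 539, 456, 430.1 and 462 CPM with GC, against 519 to 687 CPM and 364 to 663 CPM in parental tumors (control and GC). Macrophage and monocyte markers were mixed, with 6 of 11 negative in each genotype. *Mrc1* was called higher in GR KO tumors (1.20) and *Mertk* in parental tumors (1.13). Averaged over genotypes, *Ccr2* was called lower (-0.88) and *Mrc1* higher, the latter in all 20 fits without 1 tumor (0.776 to 1.03). *Mertk* was also read in the cultures, with group means of 52.7 to 87.3 CPM, so it does not mark macrophages alone here. Nor does *Zbtb46* mark dendritic cells alone, as it had group means of 7.87 to 11.4 CPM in the cultures. *Irf8*, with 40.2 to 51.8% of the dendritic sum in a tumor group, also passed the low-count filter in the cultures. There the dendritic sum had group means of 9.17 to 16.1 CPM. The sum of the macrophage and monocyte markers, led by *C1qa*, ranged over 3976 to 5760.4 CPM and 3782 to 9279 CPM in parental tumors and over 6121 to 9577 CPM and 4904 to 8345 CPM in GR KO tumors (control and GC). B cell markers were near the floor but for *Cd79b*, which in GR KO tumors (-1.13) was called by DESeq2 and not by edgeR. Of the 6 T and NK cell markers 1 fell in GR KO tumors by edgeR (*Cd3d*, -1.26), where all 6 were negative, 3 had an unadjusted p under 0.05 and DESeq2 called 3. In parental tumors edgeR called 0, 2 had an unadjusted p under 0.05 and DESeq2 called 0. The Langerhans cell marker *Cd207* was called lower in GR KO tumors (adjusted p = 0.0320 from edgeR), with 78 counts over the 5 controls and 2 over the 5 tumors with GC, and it was called in 15 of 20 fits without 1 tumor. Single tumors decided several of these calls: of the 20 fits that each left out 1 tumor, *Zbtb46* was called in 5 (-1.18 to -0.51), *Coro1a* in 10 (-1.52 to -1.12), *Mertk* in 9 (0.88 to 1.25), *Mrc1* in 14 and *Cd3d* in 15.

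Some genes listed for other cell types were called in GR KO tumors as well, against 6.42% of all genes. Of 4 fibroblast genes, 3 rose: *Col1a1* (0.64), *Col3a1* (1.03) and *Pdgfra* (1.17). Of 3 keratinocyte genes, *Krt10* (2.13) rose and *Krt14* (-1.42) fell. The endothelial gene *Kdr* (-1.32) fell, 1 of 3 tested, as did the muscle gene *Myh4* (-1.33), also 1 of 3. *Col3a1* was also read in the cultures, with group means of 68.3 to 193 CPM. Summed endothelial markers did not overlap in parental tumors either (40.6 to 63.6 CPM in controls and 16.8 to 32.4 CPM with GC), where edgeR called 0 of 3, all 3 had an unadjusted p under 0.05 and DESeq2 called 1. In parental tumors the neutrophil genes *S100a8* (-3.96) and *S100a9* (-5.03) fell. Parental control tumor 5 had 1275 CPM summed over the neutrophil markers against 22.5 to 243 CPM in the other controls, and without it the values were -2.05 and -2.98 and neither was called. Averaged over genotypes *S100a8* and *S100a9* were called lower in all 20 fits without 1 tumor (-3.24 to -1.98 and -3.79 to -2.58). Within the genotype named for each of these 9 genes, *Col3a1* and *Kdr* were called in all 20 fits without 1 tumor, *Krt10* and *S100a9* in 19, *Myh4* in 17, *Col1a1* in 14, *Pdgfra* and *Krt14* in 13 and *S100a8* in 9. The part of any of these cell types in the class II result was not tested.

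Other genes of the class II pathway were called in small numbers. Of 20 listed genes (proteases, chaperones, promoter factors and paralogs), 18 were high enough to be tested in tumors. In GR KO tumors GC lowered 2 of 18, against 6.42% of all genes called, with a median of 0.18: *Cd83*, whose product keeps class II at the surface (log2 fold change -1.95, adjusted p = 0.000403 from edgeR), and *H2-DMb2*, the second H2-DM beta gene (-1.24, adjusted p = 0.0105 from edgeR). In parental tumors GC lowered 1 of 18, against 0.779% of all genes called, the protease gene *Ctsl* (-1.06, adjusted p = 0.0457 from edgeR), with a median of -0.24. This call held in 5 of the 20 fits without 1 tumor (-1.17 to -0.90), 3 of the 18 had an unadjusted p under 0.05 (14.1% of all genes) and DESeq2 called 2 (376 of 15919 genes). Averaged over genotypes it lowered 2 of 18, against 4.28% of all genes called, *Cd83* (-1.48, adjusted p = 4.52e-05 from edgeR) and *H2-DMb2* (-0.88, adjusted p = 0.00842 from edgeR), and no pathway gene was called higher in these 3 comparisons. *Cd83* was at 48.1, 44.8, 34.6, 41.4 and 39.7 CPM in parental controls and at 25.2, 19.4, 11.8, 28.5 and 18 CPM with GC. For GR KO tumors *Cd83* was at 53.4, 51.5, 93.7, 74.3 and 26.7 CPM in controls and at 15.9, 18.3, 13.7, 12.4 and 17.3 CPM with GC. Its control and GC groups did not overlap in either genotype, although the call was made in GR KO tumors and in the average. *Cd83* and *H2-DMb2* had 0 counts in all 11 cultures, while the cathepsin gene *Ctsd* was the most abundant pathway gene of the cultures. In cultures 0 of the 14 pathway genes tested were called with GC in either genotype by edgeR, with 2 at an unadjusted p under 0.05 in parental and 0 in GR KO cultures, and 1 and 0 by DESeq2.

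Interferon gamma drives *Ciita* in many cells, and class I genes share part of its control, so both were counted beside the members. Of 8 genes of the interferon gamma axis, GC lowered 0 in parental tumors and 0 in GR KO tumors by edgeR (3 and 0 at an unadjusted p under 0.05, 1 and 0 by DESeq2) and 1 in the average, *Irf1* (log2 fold change -0.99, adjusted p = 0.0257 from edgeR). Of 10 class I pathway genes it lowered 2 in GR KO tumors by edgeR, *Tapbp* (-1.21) and *Psmb10* (-0.74), against 6.42% of all genes called and 3.71% called lower. In parental tumors it lowered 0 of the 10 by edgeR, against 0.779% of all genes called. There 6 had an unadjusted p under 0.05 (14.1% of all genes) and the median was -0.80. DESeq2 called 2 of the 10 there, and 376 of 15919 genes. The class I median in GR KO tumors was -0.48. Averaged over genotypes GC lowered 3 of the 10 class I genes, *H2-K1* (-0.88), *Tap1* (-0.70) and *Tapbp* (-0.78), against 4.28% of all genes called, and 8 had an unadjusted p under 0.05, as did 3143 of 15919 genes. These calls held in 18, 6 and 6 of the 20 fits without 1 tumor. Likewise, *Irf1* was called in 17 of 20 fits, and in GR KO tumors *Tapbp* in 14 and *Psmb10* in 13.

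The genes whose level most resembled that of the classical chains and *Cd74* across tumors were ranked by Pearson's r with the mean standardized level of these 4 genes, over the 20 tumors and after subtraction of group means. They were *Uba7* (r = 0.85), *Senp8* (0.83), *Clec4a3* (0.83), *Casp8* (0.82), *Slamf8* (0.81), *Epsti1* (0.79), *Sp140* (0.79) and *Tmem260* (0.79), and the median over the 15910 other genes tested was 0.01. Among the members outside these 4, *H2-DMa* had an r of 0.82 and *H2-DMb1* of 0.66, while *Ciita* had 0.38, *H2-Oa* 0.24 and *H2-Ob* 0.13. The tumors share an experiment and the composition of the infiltrate, and the ranking is a description that held for 0 of the 8 genes when group means were kept in.

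Class II promoters carry conserved boxes upstream of the start, and as several members fell together, the 250 bases before the start were read from RefSeq promoters on GRCm38.p6. Entries were found for 6 of the 9 members (*H2-Aa*, *H2-Eb1*, *H2-DMa*, *H2-DMb1*, *H2-Oa* and *H2-Ob*), as 7 entries, of which *H2-DMa* had 2. *H2-Ab1* and *Ciita* had no entry and *Cd74* was not searched. CCAAT, the core of the NF-Y site known as the Y box, was searched on both strands and found in 6 of the 7 entries, all but the *H2-DMa* entry that starts at 34122582, against 33.8% of 32851 promoter entries. ACNGATG, the end of the X box, was also searched on both strands and found in 4 of 7 (*H2-Aa*, *H2-Eb1*, *H2-DMb1* and *H2-Oa*), against 8.31% of entries, and both motifs were found in these 4, against 2.77%. Relative to the start, the ACNGATG match began at -91 and the CCAAT match at -61 in *H2-DMb1*, at -88 and -59 in *H2-Eb1* (with a further CCAAT at -35), at -137 and -43 in *H2-Oa*, and at -232 (on the other strand) and -48 in *H2-Aa*. Of these CCAAT matches, all but that at -35 were on the other strand too. The last 130 bases before the start are shown for the classical chains with an entry, *H2-Aa* on the minus strand (chr17:34287824-34287953) and *H2-Eb1* on the plus strand (chr17:34305737-34305866), to show how the matches lie, and that of *H2-Aa* holds no ACNGATG match in these bases. Capitals mark matches of either motif on either strand, ATTGG being CCAAT on the other strand, and the sequences are written 5′ to 3′ on the strand of the gene. A match of letters describes the sequence and is not a measured binding site.
H2-Aa: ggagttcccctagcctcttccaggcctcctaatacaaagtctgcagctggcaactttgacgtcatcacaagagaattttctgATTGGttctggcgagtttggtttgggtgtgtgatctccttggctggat
H2-Eb1: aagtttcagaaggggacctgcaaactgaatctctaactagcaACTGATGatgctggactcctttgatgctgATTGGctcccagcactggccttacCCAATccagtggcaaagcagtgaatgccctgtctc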

How the data were processed

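RNA from 20 tumors (4 groups of 5) and 11 cultures (3, 2, 3 and 3) was read from its 3′ ends. The authors trimmed reads with Trim Galore 0.6.5, aligned them to GRCm38 with STAR 2.6.1d and deposited raw gene counts from featureCounts with the Ensembl annotation. The version of featureCounts is not given in the sources used here, and no strand setting is named beyond a general statement that defaults were used, which for featureCounts means unstranded counting.

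From these counts, genes with at least 0.5 CPM in at least 3 samples were fitted with TMM factors by the quasi-likelihood test of edgeR 4.0.16 (R 4.3.3), separately for tumors (15919 genes), cultures (12525) and all samples (16273), with 1 coefficient per group and Benjamini-Hochberg adjustment over all genes tested. SEs come from the F statistic. The pipeline was tested on simulated data. Exact two-sided permutation tests on log2(CPM + 1), and on ratios to *Ptprc* or *Csf1r*, were made in Python 3.11.15 (numpy 2.4.6, pandas 2.3.3, scipy 1.17.1), and figures with matplotlib 3.10.9. Depth was 15528066 to 26386770 reads per tumor and 14441166 to 22463188 per culture.

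The alternatives were DESeq2 1.42.0, its size factors within edgeR, the compared groups alone, no filter, a filter of 10 or more counts per sample, a block for replicate number, a minimum fold change of 2 or none, a pseudocount of 0.1 CPM and leaving out each sample. The ratios to *Csf1r* under another pseudocount, single tumors left out of the permutation tests, and the alternatives for genes outside the members were added after the data were seen.

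Named were all 9 members, *Nr3c1*, *Tsc22d3*, the 8 genes most like the members and a part of the other listed genes and markers. Averaged over genotypes, GC lowered 4 of 9 dendritic, 2 of 6 T and NK and 2 of 3 endothelial markers, against 4.28% of all genes called. Not all of these are named. The members and lists were chosen with earlier results of these data known. Positions come from GENCODE M21. Promoters on chromosome 18, where *Cd74* lies, were left out of the motif search.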

Additional observations from a re-analysis of the deposited data

Results flagged for a closer look

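In 36 groups of 5 tumors (9 members in 4 groups), the highest or lowest tumor was set against the rest by its gap to the nearest tumor as a share of the group's range, with a critical value of 0.71. It was exceeded in 4 groups, and chance flags about 1 in 20 groups. GR KO control tumor 4 was far above the rest for *H2-Aa* (2962 CPM against 1097 CPM for the next, share 0.809) and for *H2-Eb1* (669.9 against 479 CPM, share 0.752). Parental control tumor 5 was far below the rest for *Cd74* (679 against 1633 CPM, share 0.752). Parental GC tumor 2 was far above the rest for *H2-Oa* (5.91 against 1.63 CPM, share 0.833). The same GR KO control tumor 4 thus held the top value of both an alpha and a beta chain gene, and without it the GC effect on *H2-Aa* differed between genotypes by -0.33 in place of 0.27.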

How the results depend on the processing

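Of the 111 counts recomputed under the alternatives other than leaving out a sample, 107 stayed within 1.5 times their value, as did 308 of 317 with a sample left out. Of the fold changes and levels of single genes, 701 of 749 and 1686 of 1928 kept their direction and their side of the threshold. For GC averaged over genotypes, 4 members were called, 2 at a fold change of at least 2 (*H2-Aa* and *Ciita*) and 2 to 4 with a sample left out. For the difference of the GC effects it was 0 members by edgeR, 1 by DESeq2 (*Ciita*, the cause was not tested) and 0 to 1 with a sample left out (1 without GR KO control tumor 4). Of tumors against cells, 1 member was called in each genotype with at least 10 counts in every sample, as only *H2-DMa* was tested there. Ratios to *Ptprc* passed in 3 tests, and in 1 to 4 with a tumor left out. With the replicate number as a block, the difference of the GC effects was -0.15 for *H2-Ob*, and *H2-DMa* in GR KO against parental cells with GC was 0.0869, both with the other sign, and *H2-Aa* averaged over genotypes was -0.94 (adjusted p = 0.0759 from edgeR). Replicate numbers do not pair the samples: residuals of samples sharing a number had a mean r of 0.0583 over 30 pairs of tumors and 0.0198 over 15 pairs of cultures. With a sample left out, log2 fold changes changed sign for GC in parental tumors (*H2-Eb1* -0.30 to 0.0256, *H2-DMa* -0.33 to 0.0263, *Ciita* -0.49 to 0.0297), for the difference of the GC effects (*H2-Aa* -0.33 to 0.45, *H2-Ob* -0.22 to 0.32), for *H2-DMa* in cultures (GC in parental cells -1.34 to 0.0636, GC in GR KO cells -0.18 to 0.70, GR KO against parental with GC -0.80 to 0.61) and for *Tsc22d3* in GR KO cells with GC (-0.19 to 0.0697); none of these was called and the cause was not tested. Leaving out a parental GC culture leaves 1, taken to vary like the other groups.

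Over all genes, DESeq2 called more than edgeR: 376 against 124 for GC in parental tumors, 1756 against 1022 in GR KO tumors, 784 against 31 for their difference, 1001 against 358 for genotype in control tumors, 293 against 101 with GC and 436 against 249 averaged, and in cultures 251 against 110 for GC in parental cells and 128 against 37 for the difference. With the compared groups alone it was 391 for GC in GR KO tumors, 159 for genotype in control tumors, 59 for GC in parental cells and 230 (against 695) for genotype in cells with GC. With the block it was 144 for the difference in tumors, 160 for genotype in tumors with GC and 63 for GC in parental cells. Without a filter it was 49 for the difference in tumors and 64 in cells. With at least 10 counts in every sample it was 66 for the difference in tumors, 661 (against 1030) and 445 for genotype in cells with DMSO and GC, and 4431 (against 7595) and 5081 (against 8917) for tumors over cells, parental then GR KO. At a fold change of at least 2 it was 583 for GC in GR KO tumors, 280 (against 681) averaged, 238 for genotype in control tumors and 145 averaged. The share called higher moved by over 10 points by DESeq2 for GC in parental cells (70.0% by edgeR, 54.6%), for the difference in cells (75.7%, 58.6%) and for genotype in tumors with GC (30.7%, 42.7%, and 43.8% with the block), with the compared groups alone for genotype in control tumors (56.1%, 68.6%), and with at least 10 counts in every sample for parental tumors over cells (65.2%, 52.8%).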
